A study of Mus musculus with 10 samples.

Results

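The interleukin 1 (IL-1) and interleukin 18 (IL-18) receptor family was followed on 10 Affymetrix whole-genome arrays of mouse splenic CD4+ T cells that had been activated and transduced with a retrovirus. All probe sets annotated to a single one of 6 symbols were taken: Il1r1, Il1r2, Il1rl1, Il1rn, Il18r1 and Il18rap. The gene annotation used here gave probe sets for 5 of the 6, out of 18193 genes with a probe set of their own. These were 2 probe sets for Il1r1, 1 for Il1r2, 3 for Il1rn, 1 for Il18r1 and 2 for Il18rap, and Il1rl1 was not analysed here.

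IL-1 and IL-18 are inflammatory cytokines whose receptors pair a ligand-binding chain with an accessory chain and signal through MyD88 and IRAK kinases to NF-kappaB. The family carries its own brakes: the type 2 IL-1 receptor binds the ligand but lacks a signalling tail, and the IL-1 receptor antagonist occupies the type 1 receptor without activating it. On T cells, IL-1 is known for its role in Th17 differentiation and IL-18 for acting with IL-12 in Th1 responses, and regulatory T cells (Tregs) are known to carry several of these receptors after activation.

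The cells came from DEREG mice on a Balb/c background, in which GFP is driven by the Foxp3 promoter, so that GFP+ cells are those in which this promoter is active. GFP+ or GFP- CD4+ splenocytes were sorted, activated through CD3 and CD28, infected with the retrovirus pGCSamIN carrying Foxp3 or nothing (mock), and sorted again for the NGFR marker of the vector. There were 5 groups of 2 arrays: GFP+ cells of scurfy DEREG mice labelled Foxp3, GFP+ cells of scurfy DEREG mice with mock vector, GFP+ cells of DEREG mice with mock vector (Treg), GFP- cells of DEREG mice labelled Foxp3 (Tconv labelled Foxp3) and GFP- cells of DEREG mice with mock vector (Tconv mock). Scurfy is a loss-of-function allele of Foxp3, the transcription factor that defines Tregs. The titles call the GFP+ starts epigenetics(+) and the GFP- starts epigenetics(-). The scurfy origin was read from the abbreviation D_S in the descriptions of 4 arrays, while the strain label is the same for all 10. The labels do not say whether the 2 arrays of a group stand for different animals or cultures. The p-values below therefore rest on array-to-array spread that may be technical. The age and sex of the animals were not given in the labels.

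The Foxp3 probe set did not follow the Foxp3 label. Its intensity was 948 and 691 on the scurfy arrays labelled Foxp3, 1188 and 1114 on the scurfy mock arrays, 2130.3 and 3128 on the Treg arrays, 18.0 and 18.9 on the Tconv arrays labelled Foxp3, and 53.9 and 35.9 on the Tconv mock arrays. Foxp3 was therefore high with every GFP+ start and low with every GFP- start, and within each start both arrays labelled Foxp3 lay below both mock arrays. Which part of the transcript this probe set reads was not determined here. The groups are called by their label throughout. Array medians ranged from 18.8 to 36.5, and correlations with the other array of the same group from 0.922 to 0.973. Scurfy labelled Foxp3 array 1 and scurfy mock array 2 correlated best with each other (r = 0.972), not with their own replicates (r = 0.95 and 0.922). All 8 T cell markers measured were above the array median on every array, and none of them was called between GFP+ and GFP- starts (median 0.12). Of 7 Treg markers 4 were called higher with GFP+ than with GFP- starts, Foxp3 among them. Ikzf2 was higher by 6.47 (SE 0.20, limma adjusted p = 7.9e-07) on the log2 scale. Ikzf4 was higher by 2.52 (SE 0.20, limma adjusted p = 0.00025) and Ctla4 by 1.41 (SE 0.26, limma adjusted p = 0.023). Nrp1, Il2ra and Tnfrsf18 were not called.

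In the mouse, Il1r2, Il1r1, Il1rl2, Il1rl1, Il18r1 and Il18rap lie in that order on chromosome 1, between Map4k4 and Slc9a4, in the RefSeq annotation. Il1rn lies on chromosome 2. The start regions are shown for the 3 genes whose probe sets were called below between GFP+ and GFP- starts. The sequences are RefSeq promoter windows of GRCm38.p6, plus strand, from 250 bases before to 50 bases after an annotated start. They are in lower case, and capitals mark every match, on either strand, to 7 letter strings: TGTTTAC and TGTTTAT (forkhead), GGGA and TTTCC with any base between them (NF-kappaB), TGANTCA (AP-1), TGTGGT (Runx), GGAAAA (NFAT) and CACGTG (E-box). Il1r2 and Il18rap have 1 window each. Il18r1 has 3, of which windows 2 and 3 are shown, since window 1 overlaps window 2 and held no match.
Il1r2, chr1:40085843-40086142: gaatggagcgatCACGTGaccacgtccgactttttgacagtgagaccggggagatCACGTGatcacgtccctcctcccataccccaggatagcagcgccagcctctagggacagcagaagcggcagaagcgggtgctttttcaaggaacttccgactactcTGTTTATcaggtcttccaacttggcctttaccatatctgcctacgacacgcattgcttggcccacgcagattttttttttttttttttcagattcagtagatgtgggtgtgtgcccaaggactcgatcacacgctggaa
Il18r1 window 2, chr1:40465371-40465670: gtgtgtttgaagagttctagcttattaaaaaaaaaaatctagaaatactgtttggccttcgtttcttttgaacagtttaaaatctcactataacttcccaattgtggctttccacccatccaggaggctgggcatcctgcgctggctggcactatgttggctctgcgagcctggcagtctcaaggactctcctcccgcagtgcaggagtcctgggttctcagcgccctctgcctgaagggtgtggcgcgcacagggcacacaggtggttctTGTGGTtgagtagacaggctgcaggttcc
Il18r1 window 3, chr1:40465756-40466055: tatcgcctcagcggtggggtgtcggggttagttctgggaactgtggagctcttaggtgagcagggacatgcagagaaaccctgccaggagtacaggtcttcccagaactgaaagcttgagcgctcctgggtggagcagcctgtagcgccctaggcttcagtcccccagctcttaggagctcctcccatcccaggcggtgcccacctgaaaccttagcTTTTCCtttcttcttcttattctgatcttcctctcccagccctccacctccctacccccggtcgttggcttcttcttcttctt
Il18rap, chr1:40515112-40515411: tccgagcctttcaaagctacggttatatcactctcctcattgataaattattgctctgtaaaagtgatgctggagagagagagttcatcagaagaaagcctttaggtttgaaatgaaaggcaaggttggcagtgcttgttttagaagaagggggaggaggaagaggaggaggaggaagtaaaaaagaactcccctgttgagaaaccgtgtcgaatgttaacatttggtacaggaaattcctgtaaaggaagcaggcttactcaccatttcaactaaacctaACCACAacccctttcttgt

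The Il1r2 window held CACGTG on 2 occasions, at positions -238 to -233 and -195 to -190, and TGTTTAT at positions -89 to -83, counted from 0 at the start. CACGTG occurred in 7.15% and TGTTTAT in 4.6% of 32851 mouse windows of the same length. Window 2 of Il18r1 and the Il18rap window each held 1 match to TGTGGT, which 16.8% of all windows hold, and both lie after the start. Window 3 of Il18r1 held GGAAAA on the minus strand, which 23.4% of all windows hold. TGTTTAC (3.65% of windows) and the NF-kappaB motif (0.411% of windows) were in none of the windows of Il1r1, Il1r2, Il1rn, Il18r1 or Il18rap, and TGANTCA (7.81% of windows) was in 1 Il1rn window only. The matches are descriptions of letters, not of binding, and no match says only that these letters are not in this window.

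Il1r2, the decoy receptor that binds IL-1 without signalling, was higher on every array of GFP+ starts than on any array of GFP- starts, although 3 of the 4 arrays of GFP- starts also read it above their median. Its intensity was 2824 and 1126 on the scurfy arrays labelled Foxp3, 2697 and 3197 on the scurfy mock arrays, 489 and 593 on the Treg arrays, 39.1 and 12.6 on the Tconv arrays labelled Foxp3, and 196 and 176 on the Tconv mock arrays. In the order scurfy mock, scurfy labelled Foxp3, Treg, Tconv mock and Tconv labelled Foxp3, only the first pair of neighbours overlapped. The mean log2 levels, as log2(intensity + 16), were 10.81 ± 0.93 in scurfy labelled Foxp3, 11.53 ± 0.17 in scurfy mock, 9.12 ± 0.19 in Treg, 5.31 ± 0.67 in Tconv labelled Foxp3 and 7.66 ± 0.10 in Tconv mock (SD, n = 2 each).

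Il18r1, the ligand-binding chain of the IL-18 receptor, had its highest values in Tregs. Its intensity was 105 and 122 on the scurfy arrays labelled Foxp3, 136 and 52.9 on the scurfy mock arrays, 284 and 574 on the Treg arrays, 3.49 and 16.2 on the Tconv arrays labelled Foxp3, and 79.5 and 34.9 on the Tconv mock arrays. Both Treg arrays exceeded all 8 others, and both Tconv arrays labelled Foxp3 lay below all others, while scurfy mock overlapped both scurfy labelled Foxp3 and Tconv mock. On the log2 scale the levels were 7.01 ± 0.14 in scurfy labelled Foxp3, 6.68 ± 0.81 in scurfy mock, 8.72 ± 0.69 in Treg, 4.65 ± 0.51 in Tconv labelled Foxp3 and 6.12 ± 0.64 in Tconv mock (SD, n = 2 each).

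Il18rap, the accessory chain without which the IL-18 receptor does not signal, was read by 2 probe sets that ran closely together (r = 0.99 over 10 arrays). With 1421291_at the intensity was 90.6 and 59.1 on the scurfy arrays labelled Foxp3, 241 and 36.7 on the scurfy mock arrays, 83.8 and 104 on the Treg arrays, 15.8 and 20.3 on the Tconv arrays labelled Foxp3, and 2.77 and 18.9 on the Tconv mock arrays. With 1456545_at it was 86.4 and 81.8 in scurfy labelled Foxp3, 311 and 50.1 in scurfy mock, 139 and 131 in Treg, 18.2 and 29.9 in Tconv labelled Foxp3, and 2.53 and 18.4 in Tconv mock. All 6 arrays of GFP+ starts exceeded all 4 arrays of GFP- starts with both probe sets, and most arrays of GFP- starts were below the array median. The 2 scurfy mock arrays lay apart from each other, by 2.29 and 2.30 on the log2 scale, with array 1 the highest of all 10.

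Il1r1, the signalling receptor for IL-1, was near background. Probe set 1448950_at gave 49.3 and 26.0 on the scurfy arrays labelled Foxp3, 3.79 and 41.1 on the scurfy mock arrays, 12.2 and 23.1 on the Treg arrays, 3.11 and 2.09 on the Tconv arrays labelled Foxp3, and 16.7 and 1.67 on the Tconv mock arrays. It was above the array median on 3 arrays, all of scurfy origin. The other probe set, 1459777_at, lay between 0.0647 and 3.96 on all 10 arrays and was the only probe set of the family not to pass the filter on low values, which kept a probe set if 2 or more arrays read it above their own median. No Il1r1 level can be read from it.

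Il1rn, the IL-1 receptor antagonist, differed widely between the 2 arrays of most groups. With 1451798_at its intensity was 206 and 236 on the scurfy arrays labelled Foxp3, 6.85 and 63.3 on the scurfy mock arrays, 12.4 and 336 on the Treg arrays, 112 and 4.11 on the Tconv arrays labelled Foxp3, and 432 and 16.9 on the Tconv mock arrays. Only the scurfy arrays labelled Foxp3 were alike, and the other 4 groups each held 1 high and 1 low array. Replicates of Treg and Tconv mock differed by 3.63 and 3.77 on the log2 scale. The other probe sets, 1423017_a_at (2.26 to 225) and 1425663_at (1.21 to 183), followed the first over the 10 arrays (r = 0.97 and 0.95).

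**Figure D1:**
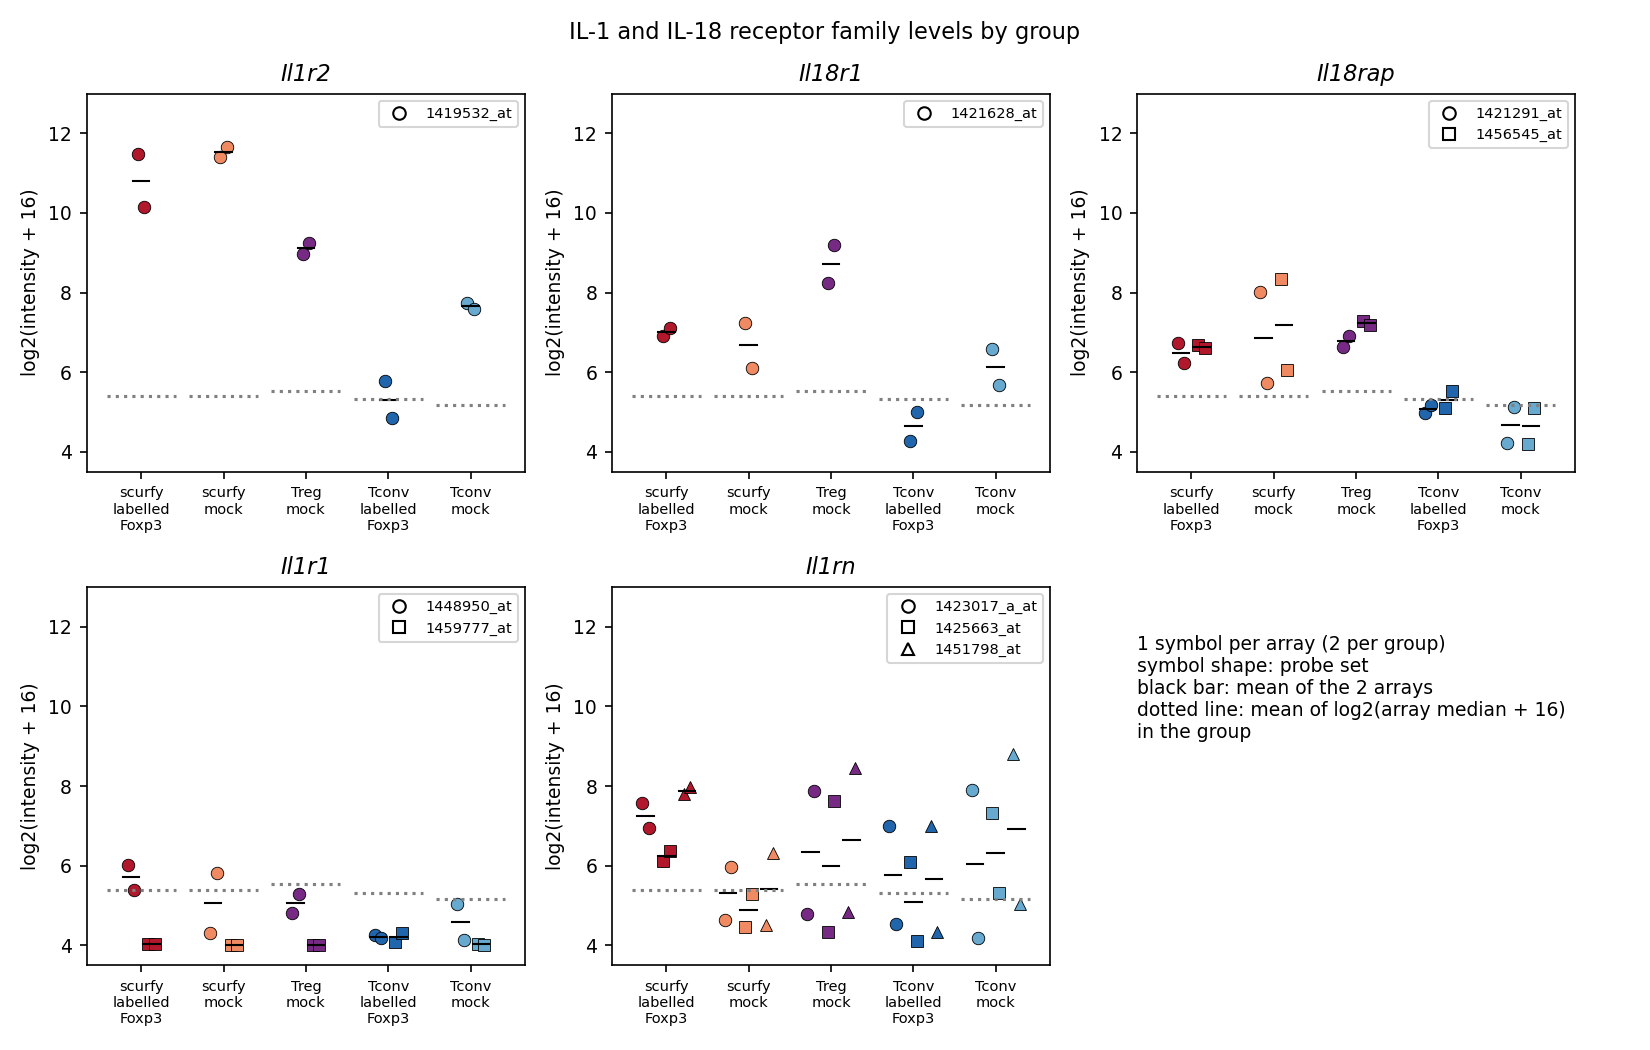
Levels of the 9 probe sets of Il1r2, Il18r1, Il18rap, Il1r1 and Il1rn, as log2(intensity + 16), by group, with 1 symbol per array, a shape per probe set, a bar at the mean of the 2 arrays and a dotted line at the mean of log2(array median + 16). Il1r2 and both Il18rap probe sets separate the 6 arrays of GFP+ starts from the 4 of GFP- starts, Il18r1 is highest in Treg, Il1r1 stays near or below the array median, and Il1rn splits the replicates of 4 groups.

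The widest comparison set the mean of 3 groups of GFP+ starts (6 arrays) against that of 2 groups of GFP- starts (4 arrays). It asks what goes with an active Foxp3 promoter in the starting cell, over both vector labels. The label is not balanced, since arrays labelled Foxp3 carry less weight on the GFP+ side than on the GFP- side. In Tconv, Il1r2 and Il18r1 were lower with the Foxp3 label (-2.35 and -1.48, not called), which lowers the GFP- mean. Il18rap was higher there (0.41 and 0.65, not called). Treg minus Tconv mock, both with mock vector, was 1.46 for Il1r2 (not called) and 2.59 for Il18r1. The scurfy groups are all GFP+ starts, and there is no GFP- scurfy group. Promoter activity and scurfy origin therefore cannot be fully told apart here. Il1r2, Il18r1 and Il18rap were higher with GFP+ starts, and Il1r1 and Il1rn were not called. Of the 8 probe sets that passed the filter, 4 rose, none fell and 4 were not called, against 2.98% of all 26094 probe sets tested that were called in either direction and 2.3% that were called higher. The median difference of the 8 was 1.35 on the log2 scale, beside 0.11 for all probe sets tested. Since members that passed the filter through the group where they are high had to differ to some degree, these counts are descriptions. Over all probe sets 599 were called higher and 178 lower, against 593 and 359 after quantile normalization and 735 and 514 after scaling to a common 75th percentile.

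For Il1r2 the 6 arrays of GFP+ starts had a lowest, median and highest intensity of 489, 1911 and 3197, and the 4 arrays of GFP- starts lay between 12.6 and 196. The difference was 4.00 (SE 0.29, 95% interval 3.35 to 4.66, adjusted p = 0.00019 in limma with Benjamini-Hochberg adjustment), or 16-fold on the scale of intensity + 16. This call held in all 22 alternative settings run, with adjusted p between 2.8e-06 and 0.0039. Il1r2 did not overlap between the sides, nor did either Il18rap probe set, against 3.38% of all probe sets that lay wholly higher with GFP+ starts.

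For Il18r1 the 6 arrays of GFP+ starts had a lowest, median and highest intensity of 52.9, 129 and 574, and the arrays of GFP- starts reached 79.5. The difference was 2.08 (SE 0.32, limma adjusted p = 0.011), although scurfy mock array 2 lay below Tconv mock array 1. The call was lost without Tconv labelled Foxp3 array 1 (1.90, limma adjusted p = 0.069) and without Tconv mock array 2 (1.86, limma adjusted p = 0.054).

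The 2 chains of the IL-18 receptor were thus both higher in this comparison, but they parted between groups. In scurfy mock against Treg, Il18r1 differed by -2.04 and Il18rap by 0.09 and -0.04. Il18rap was higher by 1.82 (SE 0.40, limma adjusted p = 0.046) with 1421291_at and by 2.04 (SE 0.40, limma adjusted p = 0.028) with 1456545_at. Each of these 2 calls was lost in 8 of the 10 fits that left out 1 array, that is without any one of the arrays of the scurfy group labelled Foxp3, Treg, Tconv labelled Foxp3 or Tconv mock. In those 10 fits the differences stayed between 1.44 and 2.21 and between 1.66 and 2.43, and the highest adjusted p were 0.17 and 0.13. Il1r1 was higher by 0.88 (SE 0.33, limma adjusted p = 0.18) and was not called. The Il1rn probe sets differed by 0.00 to 0.39 with SE of 0.67 to 0.91 (limma adjusted p from 0.84 to 1), so that intervals such as -1.69 to 2.40 for 1451798_at leave its direction undetermined.

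**Figure D2:**
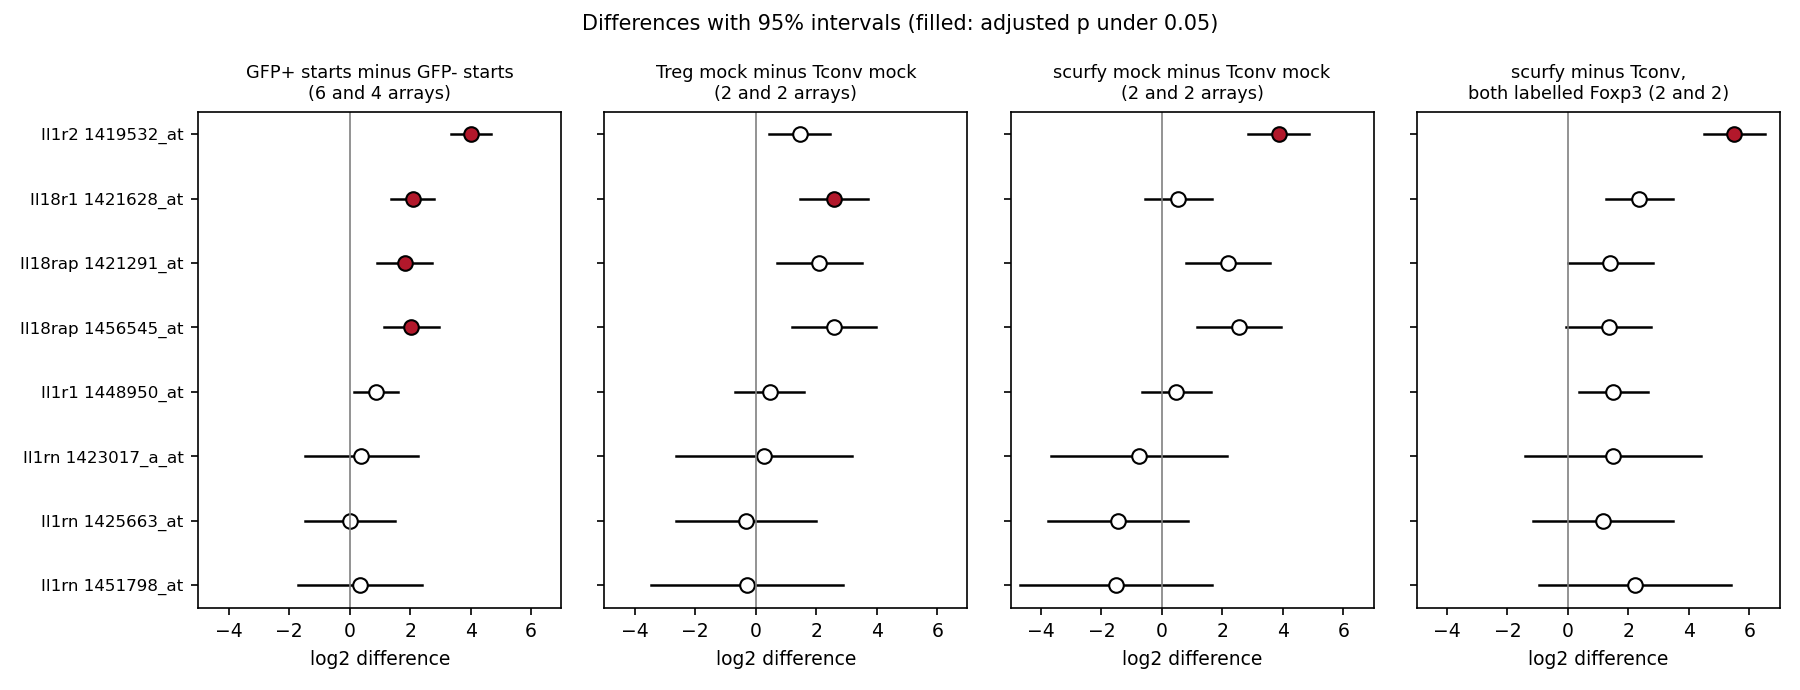
Log2 differences of the 8 tested probe sets of the family with 95% intervals, for GFP+ against GFP- starts, Treg mock against Tconv mock, scurfy mock against Tconv mock, and scurfy against Tconv among the arrays labelled Foxp3; filled points have an adjusted p under 0.05. Il1r2 is filled in 3 of the 4 panels (4.00, 3.87 and 5.50), Il18r1 in 2 and Il18rap in 1, and the 3 Il1rn intervals include 0 in every panel.

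Treg against Tconv mock compared cells with and without natural Foxp3 expression under the same vector. Il18r1 rose to 284 and 574 in Tregs, against 79.5 and 34.9 in Tconv mock, a difference of 2.59 (SE 0.50, limma adjusted p = 0.045). It was the only 1 of the 8 probe sets called, while 1.08% of all probe sets were called. The call was lost in 15 of 23 alternative settings, among them every fit without an array of Treg, Tconv mock, Tconv labelled Foxp3 or the scurfy group labelled Foxp3, with a difference of 2.11 without Treg array 2 (limma adjusted p = 0.33) and 2.14 without Tconv mock array 2 (limma adjusted p = 0.32). Il18rap was higher by 2.10 (SE 0.63, limma adjusted p = 0.15) and 2.58 (SE 0.62, limma adjusted p = 0.091), and Il1r2 by 1.46 (SE 0.45, limma adjusted p = 0.16). None of these 3 was called, although the 2 arrays of each group did not overlap, as for 39.9% of all probe sets in this direction. Both Il18rap probe sets were called beside Il18r1 without scurfy mock array 1 or without array 2, so that 3 of 8 were, at the same differences. With only the 4 arrays compared, 1 Il18rap probe set was called and Il18r1 was not. The median of all probe sets was itself 0.26 here, and -0.01 after quantile normalization, where Il18r1 differed by 2.35 (limma adjusted p = 0.056). Calls over all probe sets split into 241 higher and 40 lower, after quantile normalization into 200 and 102, and with a common 75th percentile into 250 and 145.

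Scurfy mock against Tconv mock shares its Tconv arrays with the preceding comparison. It set scurfy cells with an active Foxp3 promoter but no functional Foxp3 against non-scurfy cells in which this promoter is not active. Without a GFP- scurfy group, promoter activity and scurfy origin cannot be told apart in it. Il1r2 rose to 2697 and 3197 in scurfy mock, against 196 and 176 in Tconv mock, by 3.87 (SE 0.45, limma adjusted p = 0.0094). It was 1 of 8 called, against 0.326% of all probe sets (70 higher and 15 lower, 86 and 37 after quantile normalization, 109 and 50 with a common 75th percentile). Without Tconv mock array 1 the difference was 3.94 (limma adjusted p = 0.077) and without array 2 it was 3.80 (limma adjusted p = 0.091). Il18rap was higher by 2.19 (SE 0.63, limma adjusted p = 0.22) and 2.54 (SE 0.62, limma adjusted p = 0.16), with scurfy mock array 1 far above array 2, whereas Il18r1 differed by 0.55 (SE 0.50, limma adjusted p = 0.66). Il1r2 and both Il18rap probe sets lay wholly higher, against 37.7% of all. Without scurfy mock array 2, both Il18rap probe sets were called as well, so that 3 of 8 were.

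Scurfy mock against Treg set 2 GFP+ starts side by side under the same vector. None of the 8 probe sets was called, while 0.199% of all probe sets were (13 higher and 39 lower, 30 and 47 after quantile normalization, 44 and 65 with a common 75th percentile). Of the 8, 2 had an unadjusted p under 0.05, against 7.82% of all. Those were Il1r2, higher by 2.41 (SE 0.45, limma adjusted p = 0.091) in scurfy mock, and Il18r1, lower by 2.04 in scurfy mock (log2 difference -2.04, SE 0.50, limma adjusted p = 0.19). Neither gene overlapped between these groups, as for 32.6% of all probe sets, and their differences had opposite signs. Il18rap differed by 0.09 and -0.04 with intervals of -1.31 to 1.49 and -1.43 to 1.35.

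The Foxp3 label was compared within each start. In Tconv none of the 8 probe sets was called between the arrays labelled Foxp3 and mock, while 0.0192% of all probe sets were (2 higher and 3 lower, 0 and 1 after quantile normalization, 4 and 18 with a common 75th percentile), and 2 of the 8 had an unadjusted p under 0.05 against 13.1% of all. Il1r2 was 39.1 and 12.6 on the arrays labelled Foxp3, against 196 and 176 on the mock arrays, a difference of -2.35 (SE 0.45, 95% interval -3.36 to -1.33, limma adjusted p = 0.15). Il18r1 was 3.49 and 16.2 on the arrays labelled Foxp3, against 79.5 and 34.9 on the mock arrays, a difference of -1.48 (SE 0.50, limma adjusted p = 0.29). Neither overlapped between the groups, as for 56.8% of all probe sets. Foxp3 itself was lower on the arrays labelled Foxp3 in this comparison (-0.80, SE 0.31, limma adjusted p = 0.33), so the direction goes by the label alone.

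In the scurfy cells none of the 8 probe sets was called between the arrays labelled Foxp3 and mock, and 0% of all probe sets were, with 4.25% of all (1108) and none of the 8 at an unadjusted p under 0.05. Il1r2 differed by -0.71 (SE 0.45, limma adjusted p = 1), and Il18r1 by 0.33 (SE 0.50). All 3 Il1rn probe sets were higher on both arrays labelled Foxp3 than on both mock arrays, by 1.95 (SE 1.3), 1.37 (SE 1.03) and 2.48 (SE 1.42), with limma adjusted p of 1, where 13.2% of all probe sets lay wholly higher. The difference between the 2 label effects was 1.63 (SE 0.64, limma adjusted p = 0.62) for Il1r2 and 1.81 (SE 0.71, limma adjusted p = 0.62) for Il18r1. For the 3 Il1rn probe sets it was 2.24 (SE 1.84), 2.60 (SE 1.46) and 3.73 (SE 2.00). No probe set was called for it, 0% of all. Of the 8, 2 had an unadjusted p under 0.05 for it, against 7.92% of all (2067).

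Scurfy against Tconv among the arrays labelled Foxp3 had the largest Il1r2 difference of the 8 comparisons. Scurfy origin and an active Foxp3 promoter in the starting cell cannot be told apart in it either. Il1r2 was 2824 and 1126 in the scurfy cells, against 39.1 and 12.6 in Tconv, a difference of 5.50 (SE 0.45, limma adjusted p = 0.0011) that held in all 23 alternative settings run, with adjusted p up to 0.021. It was 1 of 8 called, against 1.15% of all probe sets. Il18r1 was 105 and 122 in the scurfy cells, against 3.49 and 16.2 in Tconv, a difference of 2.36 (SE 0.50, limma adjusted p = 0.058). Without either scurfy mock array, whose only part in this difference is the shared estimate of the spread, Il18r1 was called too, so that 2 of 8 were. All 8 differences were above 0, and 7 probe sets lay wholly higher in the scurfy cells, against 21% of all, with a median of 1.49 beside -0.08 for all probe sets. Nothing is read from these counts, since the 8 probe sets stand for 5 genes and Il1r1 passed the filter only through scurfy arrays. Il18rap was higher by 1.40 (SE 0.63, limma adjusted p = 0.34) and 1.34 (SE 0.62, limma adjusted p = 0.36) and Il1r1 by 1.49 (SE 0.51, limma adjusted p = 0.21), none of them called.

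Markers of other cell types were read on the same arrays, since other leucocytes also carry receptors of this family. Neutrophils are a well known source of Il1r2. Of their markers 0 of 7 were above the array median on 9 arrays and 1 of 7 on Tconv mock array 1, and their summed intensity was 26.6 to 35.7 in scurfy labelled Foxp3, 23.6 to 37.3 in scurfy mock, 24.5 to 57.7 in Treg, 18.9 to 33.7 in Tconv labelled Foxp3 and 21.3 to 43.3 in Tconv mock. S100a8 and S100a9, calcium-binding proteins abundant in neutrophils, reached at most 12.9 and 6.8. None of the neutrophil markers passed the filter. Il1r2 correlated with the neutrophil list at r = 0.21 over the 10 arrays.

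B cell markers differed between arrays of the same group. Summed over 6 genes they were 724.9 and 1730.2 in scurfy labelled Foxp3, 75.6 and 331.8 in scurfy mock, 54.0 and 554.6 in Treg, 285.6 and 487.4 in Tconv labelled Foxp3, and 47.6 and 39.3 in Tconv mock, with 0 to 6 of the 6 above the array median. Summed macrophage and monocyte markers (8 genes, 2 to 4 above the median) were 290.7 to 463.3 in scurfy labelled Foxp3, 137.8 to 171.6 in scurfy mock, 184.1 to 225.1 in Treg, 101.7 to 107.0 in Tconv labelled Foxp3 and 89.0 to 217.8 in Tconv mock. Dendritic cell markers (5 genes, 1 to 2 above the median) summed to 237.7 to 260.1 in scurfy labelled Foxp3, 151.8 to 183.1 in scurfy mock, 77.6 to 261.4 in Treg, 67.3 to 81.2 in Tconv labelled Foxp3 and 93.1 to 103 in Tconv mock. Mast cell and basophil markers (8 genes, 0 to 3 above the median) summed to 284.2 to 287.4 in scurfy labelled Foxp3, 122.0 to 140.1 in scurfy mock, 48.4 to 219.3 in Treg, 75.3 to 109.3 in Tconv labelled Foxp3 and 46.6 to 71.0 in Tconv mock. None of these lists held a called gene between GFP+ and GFP- starts, nor did the 2 CD8 T cell markers. Nearest to a call were the mast cell marker Kit (2.02, SE 0.48, limma adjusted p = 0.058) and the dendritic cell marker Zbtb46 (1.17, SE 0.28, limma adjusted p = 0.061). Neither overlapped between the starts. Kit was 6.63 to 168 on the arrays of GFP+ starts and 0.447 to 1.19 on those of GFP- starts. NK cell markers (4 genes, 0 to 1 above the median) summed to between 6.3 and 204.2. The highest sum was on scurfy mock array 1, which also had the highest Il18rap, but Eomes alone made up 203 of it, and Ncr1, Klre1 and Klra8 were at 0.493, 0.548 and 0.363 there. Eomes was the only NK cell marker that passed the filter, and activated T cells can express it too. Which cells gave the Eomes or the Il18rap signal on this array was not tested.

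Over the 10 arrays the mean log2 level of the Treg markers correlated with Il1r2 (r = 0.84), Il18r1 (r = 0.81) and Il18rap (r = 0.82). Il1rn correlated with the neutrophil list (r = 0.77), in which no marker passed the filter, and the dendritic cell list (r = 0.61). Il1r2 (r = 0.72) and Il1r1 (r = 0.76) also correlated with the dendritic cell list, in which only Itgax and Zbtb46 passed the filter. Il1r1 correlated with the macrophage and monocyte list at r = 0.64. Il18rap correlated with the NK cell list (r = 0.76), in which only Eomes passed the filter. These correlations describe 10 arrays that share groups and RNA amplification. The part of other cell types in the Il1rn, Il1r1, Il1r2, Il18r1 and Il18rap results was not tested. Fewer cells of a type and less RNA per cell cannot be told apart in sorted bulk samples.

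**Figure D3:**
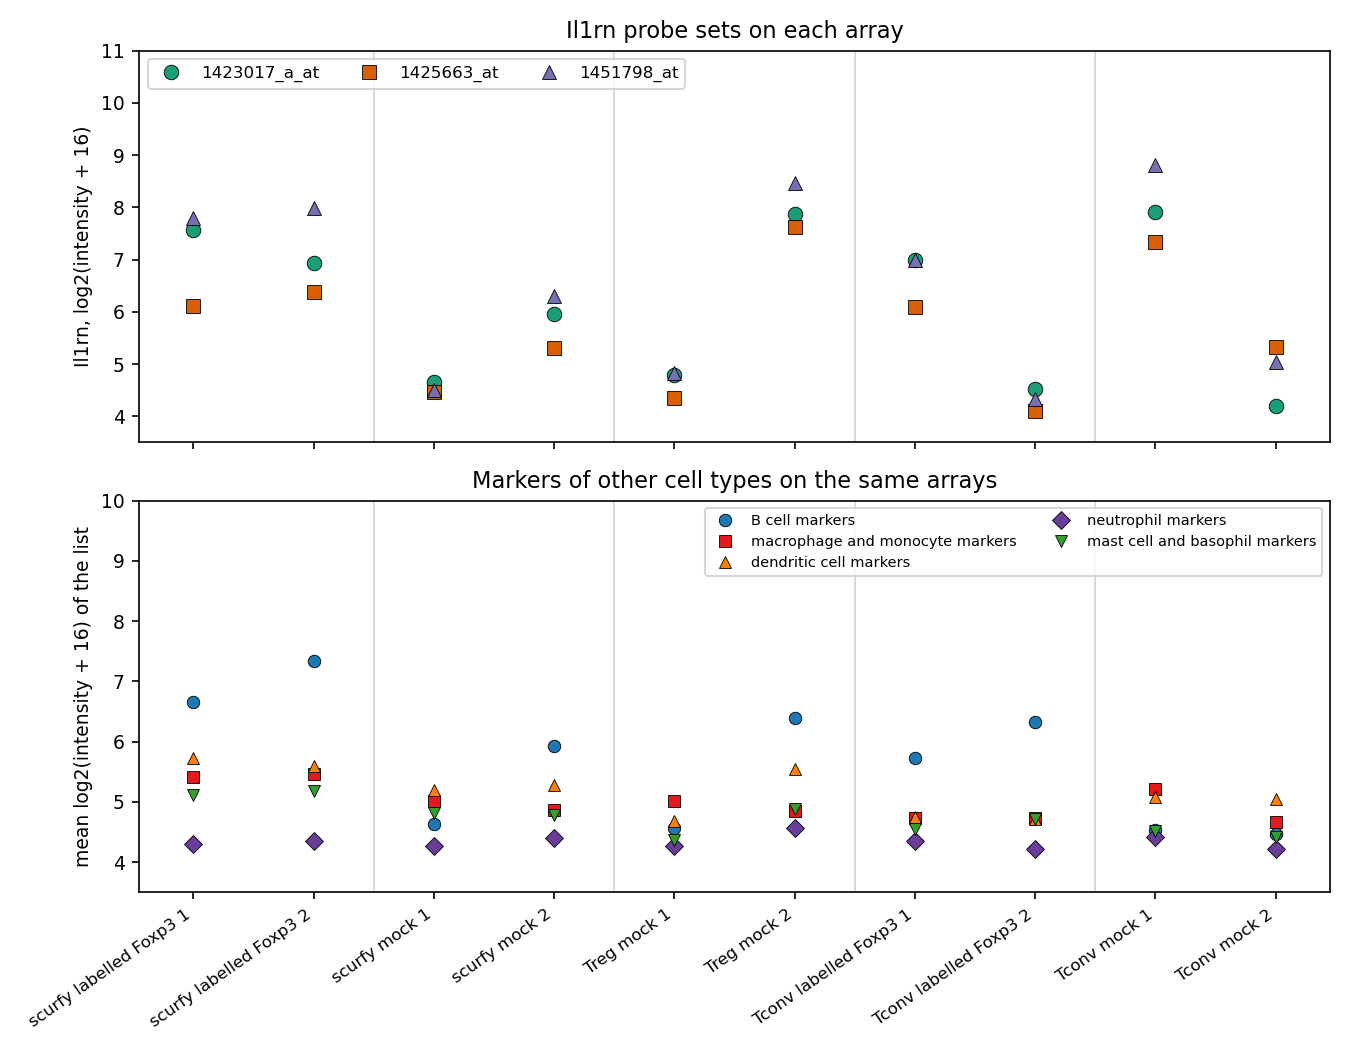
Upper panel, log2(intensity + 16) of the 3 Il1rn probe sets on each of the 10 arrays; lower panel, the mean log2(intensity + 16) of 5 lists of markers of other cell types on the same arrays. With 1451798_at Il1rn is above the array median on both scurfy arrays labelled Foxp3, scurfy mock array 2, Treg array 2, Tconv labelled Foxp3 array 1 and Tconv mock array 1. Tconv mock array 1 has the highest value (432). Its summed intensities of B cell, macrophage and monocyte, and neutrophil markers are 47.6, 217.8 and 43.3, against 39.3, 89.0 and 21.3 on array 2. On Treg array 2 these sums are 554.6, 225.1 and 57.7, against 54.0, 184.1 and 24.5 on array 1. On scurfy mock array 2 they are 331.8, 137.8 and 37.3, against 75.6, 171.6 and 23.6 on array 1. On Tconv labelled Foxp3 array 1 they are 285.6, 101.7 and 33.7, against 487.4, 107 and 18.9 on array 2.

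The genes whose levels ran most like each member were taken over the 10 arrays, from 10783 genes, by Pearson correlation with the member's brightest probe set. Il1r2 was followed most closely by Adam8, a membrane metalloprotease (r = 0.976), Dbndd2 (r = 0.974) and Entpd1 (r = 0.965), which encodes CD39, the ectonucleotidase of activated Tregs. Their mean differences between GFP+ and GFP- starts were 2.48 for Adam8, 1.76 for Dbndd2 and 2.71 for Entpd1, which ranged from 23.9 to 2542. These differences follow from the choice of genes by likeness to Il1r2 and are given without a test. Il18rap ran with Fam124b (r = 0.972), Plcl1 (r = 0.961) and Cyb5a (r = 0.958). Il18r1 ran with Slc22a5 (r = 0.957), a carnitine transporter, Ypel3 (r = 0.957) and Trappc12 (r = 0.953). Il1r1 ran with Gpr160 (r = 0.969), Ppfibp1 (r = 0.954) and Stx11 (r = 0.947). For Il1rn the nearest genes were less like it: Clip2 (r = 0.894), Tnni1 (r = 0.880) and Yap1 (r = 0.866). Among the members themselves the 2 IL-18 receptor chains correlated at 0.65 and 0.66, Il1r2 with Il18rap at 0.68 and 0.64, Il1r2 with Il1r1 at 0.70 and Il1r2 with Il18r1 at 0.56, all over 10 arrays.

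Over 6 lists of the rest of the pathway 1 of 41 genes tested was called between GFP+ and GFP- starts, or 2.44%, near the 2.98% of all probe sets. Of 6 other receptors and soluble inhibitors of the family 4 were tested and none was called. The median difference was 0.15. Sigirr, a receptor-like inhibitor of IL-1 and IL-18 signalling, was 546 and 325 in scurfy labelled Foxp3, 483 and 556 in scurfy mock, 257 and 448 in Treg, 842 and 682 in Tconv labelled Foxp3, and 745 and 769 in Tconv mock. All arrays of GFP+ starts lay below all arrays of GFP- starts, with a difference of -0.83 (SE 0.23, limma adjusted p = 0.091) that missed the threshold. Il1rap, the accessory chain of the IL-1 receptor, differed by 0.42 (SE 0.29, limma adjusted p = 0.47), Il18bp, the soluble IL-18 trap, by 0.73 (SE 0.48, limma adjusted p = 0.44) and Il1rl2 by -0.12 (SE 0.30, limma adjusted p = 0.86).

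Of the 9 ligand genes 2 passed the filter, and neither was called. Il1b was 133 and 68.6 in scurfy labelled Foxp3, 2.65 and 23.7 in scurfy mock, 2.81 and 58.9 in Treg, 9.63 and 4.96 in Tconv labelled Foxp3, and 6.07 and 13.8 in Tconv mock, and differed by 1.00 (SE 0.40, limma adjusted p = 0.21) between GFP+ and GFP- starts. Il18 was at most 39.2 on any array and differed by 0.08 (SE 0.18, limma adjusted p = 0.85). Among 5 tested genes of ligand processing, none was called and the median was 0.56. The largest were Casp1, which cleaves both cytokines, by 1.47 (SE 0.62, limma adjusted p = 0.23) and Aim2, a DNA sensor of the inflammasome, by 0.92 (SE 0.22, limma adjusted p = 0.059).

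Downstream of the receptors, 18 of 23 genes of MyD88 and IRAK signalling were tested and none was called, with a median of 0.16 beside 0.11 for all probe sets. The largest were Ikbkg, the regulatory subunit of the IkappaB kinase (0.69, SE 0.20, limma adjusted p = 0.10), Peli1 (0.54, SE 0.18, limma adjusted p = 0.14) and Traf6, the ubiquitin ligase downstream of IRAK kinases (0.49, SE 0.20, limma adjusted p = 0.21). Of 11 tested genes induced by NF-kappaB 1 rose and 10 were not called, with a median of 0.52. The one that rose was Nfkbiz, a nuclear IkappaB protein induced by IL-1, at 746 and 331 in scurfy labelled Foxp3, 235 and 397 in scurfy mock, 439.6 and 957 in Treg, 116 and 159 in Tconv labelled Foxp3, and 187 and 129 in Tconv mock. Every array of GFP+ starts exceeded every array of GFP- starts, by 1.57 on average (SE 0.31, limma adjusted p = 0.031). Icam1, an adhesion molecule, differed by 1.17 (SE 0.27, limma adjusted p = 0.053), Cd83 by 1.38 (SE 0.85, limma adjusted p = 0.41) and Tnfaip3 by 1.08 (SE 0.41, limma adjusted p = 0.19). Of 6 chromosomal neighbours 2 were tested, Map4k4 (-0.13, SE 0.28) and Il1rl2 (above), and neither was called.

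T helper genes that accompany these receptors were read in the same way. Of 7 IL-12 receptor and Th1 genes none was called, with a median of -0.26, and the largest differences were Ifng by 1.32 (SE 0.54, limma adjusted p = 0.22), Tbx21, the Th1 transcription factor, by -1.12 (SE 0.28, limma adjusted p = 0.068) and Cxcr3 by -0.98 (SE 0.34, limma adjusted p = 0.16). In Treg against Tconv mock, Il12rb2, a chain of the IL-12 receptor, differed by -2.63 (SE 0.53, limma adjusted p = 0.051), where Il18r1 rose. Of 4 tested Th17 genes 2 rose with GFP+ starts, Rora by 4.03 (SE 0.33, limma adjusted p = 0.00033) and Ahr by 1.06 (SE 0.24, limma adjusted p = 0.049), with a median of 1.59. Ccr6, a chemokine receptor of Th17 cells, differed by 2.12 (SE 0.50, limma adjusted p = 0.057) and Il17a by 0.79 (SE 0.46, limma adjusted p = 0.38). Rora, a nuclear receptor, was 1186 and 515 in scurfy labelled Foxp3, 1873 and 792 in scurfy mock, 501 and 836 in Treg, 46.0 and 59.4 in Tconv labelled Foxp3, and 17.7 and 35.3 in Tconv mock, with no overlap between the starts. Of 9 Th2 and tissue Treg genes Klrg1, an inhibitory lectin-like receptor, rose by 2.85 (SE 0.36, limma adjusted p = 0.0044), and 8 were not called, among them the Th2 cytokines Il4 (1.59, SE 1.02), Il13 (1.36, SE 0.81) and Il5 (1.04, SE 0.97). The median of the list was 0.54. Pparg, a nuclear receptor of tissue Tregs, fell in Treg against Tconv mock (-2.35, SE 0.36, limma adjusted p = 0.020) and on the Tconv arrays labelled Foxp3 against Tconv mock (-3.91, SE 0.36, limma adjusted p = 0.014).

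**Figure D4:**
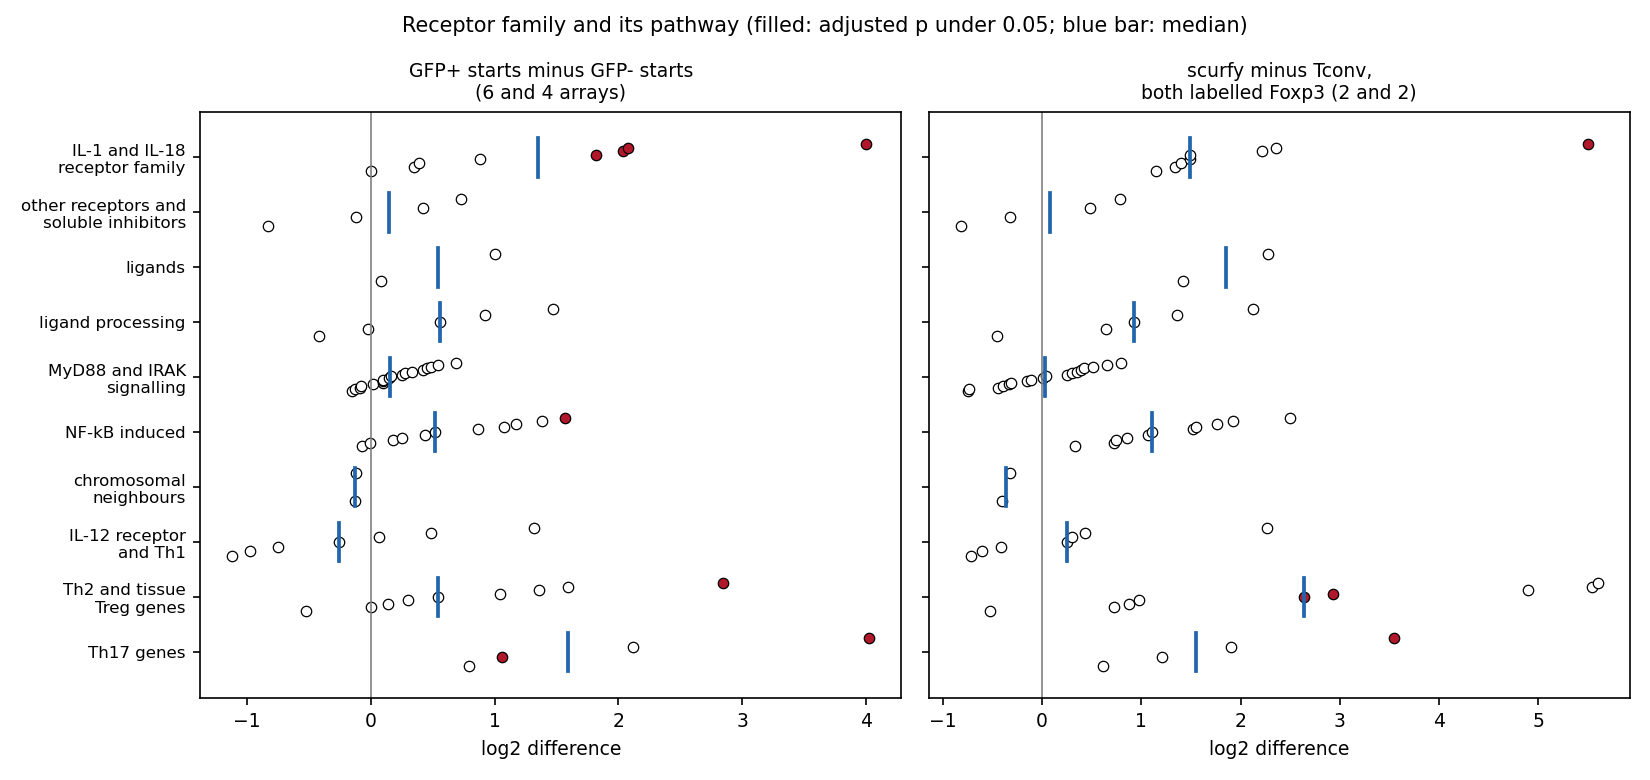
Log2 differences of the family's probe sets and of the genes of 9 pathway lists (1 probe set per gene), for GFP+ against GFP- starts and for scurfy against Tconv among the arrays labelled Foxp3; filled points have an adjusted p under 0.05 and blue bars are medians. The family's median lies at 1.35 in the left panel, against 0.16 for MyD88 and IRAK signalling and 0.52 for the NF-kappaB induced genes.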

How the data were processed

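RNA of sorted CD4+ T cells was amplified and hybridised to 10 arrays, 2 in each of 5 groups taken from the sample titles. The deposited values are linear intensities per probe set, made by the authors with Affymetrix Expression Console, per the submitters' processing notes; their summary method, scaling and version were not given in the sources used here. Of 45101 probe sets 64 were controls, and the platform annotation gave 34945 a single symbol, 932 several and 9224 none. Members are all probe sets with the one symbol. Values were converted to log2(intensity + 16) without normalization, and the 26094 probe sets that 2 or more arrays read above their own median were kept. All 10 arrays entered 1 fit (limma 3.58.1, R 4.3.3: lmFit, contrasts.fit, eBayes), with 5 residual and 4.72 prior degrees of freedom and two-sided p-values adjusted by Benjamini-Hochberg over all probe sets. A probe set was called at an adjusted p under 0.05. The log2 scale understates the change of dim probe sets, and the number of arrays limits precision. Named genes were all members, the 3 genes most correlated with each, called genes of the lists and up to 3 more with the largest differences. Members, lists and tests were chosen with earlier results of these data known, and the fit was tested on simulated data. Alternatives changed the normalization, pseudocount, filter, probe set summary, variance model and arrays used.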

Additional observations from a re-analysis of the deposited data

How the results depend on the processing

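Of 1392 alternative values of single differences, 46 lost a call and 21 gained one. Of the rest, 1211 kept their call or, where there was none, moved by less than 1 SE, and 114 moved further. The sign changed in 45, all of differences not called, 16 of them within 1 SE. Il1r2 with GFP+ against GFP- starts and among the arrays labelled Foxp3 kept its call throughout. The count of called probe sets was 1 in Treg against Tconv mock. It was 0 after quantile normalization, with a pseudocount of 1, with no filter, with a filter at the 75th percentile, with 1 probe set per gene and with the replicate block, 2 (Il18r1 and Il18rap) with array weights, 1 (Il18rap in place of Il18r1) with only the groups compared, 3 (Il18r1 and both Il18rap) without the 2 arrays of lowest mean correlation (scurfy mock array 1 and scurfy labelled Foxp3 array 2, chosen after seeing the data), and 0 to 3 with 1 array left out. It was 1 in scurfy mock against Tconv mock, 0 with a pseudocount of 1, with no filter or with only the groups compared, and 0 to 3 with 1 array left out. In scurfy mock against Treg it was 0, and 1 (Il1r2) with a common 75th percentile, a pseudocount of 64 or a trended robust fit. In Tconv labelled Foxp3 against Tconv mock it was 0, and 1 (Il1r2) with array weights. Among the arrays labelled Foxp3 it was 1, and 2 (Il1r2 and Il18r1) with a common 75th percentile, 1 probe set per gene, the mean of probe sets, a trended robust fit or only the groups compared, and 1 to 2 with 1 array left out. With GFP+ against GFP- starts it was 4, and 2 (Il1r2 and Il18r1) with a pseudocount of 1 or 64 or with no filter, and 1 to 4 with 1 array left out; only the groups compared gives no separate value there. With GFP+ against GFP- starts it was also 3 after quantile normalization and with the replicate block, each time without Il18rap 1421291_at. With a filter at the 75th percentile, 1 probe set per gene or the mean of probe sets, 3 of 5 tested were called there. Within the scurfy cells, and for the difference of label effects, the count stayed 0. Over all probe sets the calls ranged, with 1 array left out and over the other settings, over 151 to 1293 and 362 to 1249 (777 as reported) with GFP+ against GFP- starts, 15 to 504 and 96 to 610 (281) in Treg against Tconv mock, 15 to 437 and 0 to 190 (85) in scurfy mock against Tconv mock, 4 to 172 and 0 to 113 (52) in scurfy mock against Treg, 0 to 13 and 0 to 924 (5) in Tconv labelled Foxp3 against Tconv mock, 22 to 516 and 110 to 550 (300) among the arrays labelled Foxp3, and 0 to 72 and 0 to 5 (0) in scurfy labelled Foxp3 against scurfy mock, with the 72 without scurfy mock array 2. With no filter 9 probe sets were tested over a larger family, and for the other settings the cause was not tested. With 1 array left out, the lone array is assumed to vary like the other groups. No strong pairing by replicate number was seen: deviations of same-numbered arrays correlated between -0.143 and 0.15 over probe sets. These correlations do not settle whether same-numbered arrays were handled together. With the replicate block the Il18r1 call in Treg against Tconv mock was lost (adjusted p = 0.066 in limma). So was the Il18rap 1421291_at call with GFP+ against GFP- starts (adjusted p = 0.057 in limma). Signal near background limits Il1r1, Il18 and Il18rap in GFP- starts.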

Other observations

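Rora, Klrg1 and Pparg, genes of the T helper lists that had calls in several comparisons, are given here for those comparisons. Rora rose in Treg against Tconv mock by 4.00 (SE 0.51, limma adjusted p = 0.0096), in scurfy mock against Tconv mock by 4.89 (SE 0.51, limma adjusted p = 0.0045) and, among the arrays labelled Foxp3, in scurfy cells against Tconv by 3.55 (SE 0.51, limma adjusted p = 0.014). The first pair of these comparisons shares the Tconv mock arrays. Klrg1 rose in Treg against Tconv mock by 3.59 (SE 0.55, limma adjusted p = 0.019) and in scurfy cells against Tconv, both labelled Foxp3, by 2.93 (SE 0.55, limma adjusted p = 0.040). Pparg was higher in scurfy cells than in Tconv among the arrays labelled Foxp3, by 2.64 (SE 0.36, limma adjusted p = 0.011), where Il1r2 rose by 5.50.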
